A study of Arabidopsis thaliana with 6 samples.

Results

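The *SQUAMOSA PROMOTER BINDING PROTEIN-LIKE* (*SPL*) genes of the age pathway were followed in shoot apices of wild-type (WT) and *vip3-1* Arabidopsis. The 10 genes, out of 33554 in the deposited tables, were chosen by locus as the *SPL* genes that microRNA156 (miR156) targets: *SPL2* (AT5G43270), *SPL3* (AT2G33810), *SPL4* (AT1G53160), *SPL5* (AT3G15270), *SPL6* (AT1G69170), *SPL9* (AT2G42200), *SPL10* (AT1G27370), *SPL11* (AT1G27360), *SPL13A* (AT5G50570) and *SPL15* (AT3G57920). VIP3 is a subunit of the Polymerase II-associated factor 1 complex (Paf1c), which accompanies RNA polymerase II during transcription, and *vip3-1* is a loss-of-function allele in the Col-0 background that the WT plants share. Plants of both genotypes spent 3 weeks in short days at 21°C and were then moved to continuous light at 16°C, and apices of the primary inflorescence were dissected free of flowers older than stage 4. RNA was extracted from 6 tubes of 30 to 35 apices per genotype, and each of the 3 libraries per genotype was made from the pooled RNA of 2 tubes. The authors' methods call these technical triplicates, so that p-values measure the spread between pools of apices. The mutant is represented by a single allele. The time in continuous light before dissection was not given in the sources used here.

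SPL proteins are plant transcription factors that share the SBP DNA-binding domain. In young plants miR156 and its relative miR157 are abundant and hold the *SPL* mRNAs down by cleavage and by blocking translation. As the plant ages the miRNAs decline, the SPL proteins accumulate, and leaves, trichomes and the competence to flower change from the juvenile to the adult state. In the shoot apex SPL proteins are known to promote floral meristem identity genes, the flowering activator *SOC1* and the genes of microRNA172, which in turn represses the AP2-type floral repressors.

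The sites through which miR156 recognizes the 10 mRNAs are shown because they define the group and divide it by position. Positions and sequences are from RefSeq, assembly TAIR10.1, in which all 10 loci were found. The mature miRNAs are given first, 5′ to 3′, with the seed (bases 2 to 8) in capitals. Of the annotated loci, 6 encode the first of these sequences and 3 encode the second, whose seed is the same stretch shifted by a base.
miR156a to miR156f: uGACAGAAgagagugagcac
miR157a to miR157c: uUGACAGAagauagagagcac
miR157d: uGACAGAAgauagagagcac

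The target sites follow, also 5′ to 3′ on the mRNA, with capitals at the bases that do not form a Watson-Crick pair with miR156a.
*SPL2*, *SPL6*, *SPL9*, *SPL10*, *SPL11*, *SPL13A* and *SPL15*: gugcucUcucucuucuguca
*SPL4*: CugcucUcucucuucuguca
*SPL3*: UugcuUacucucuucuguca
*SPL5*: CCgcucUcucucuucuguca
The first site has 1 such mismatch and lies within the coding sequence of the last exon of each of its genes. The sites of *SPL3* and *SPL4* have 2 mismatches and that of *SPL5* has 3, and all 3 lie in the 3′ UTR, in exon 2. None of the 6 other *SPL* genes examined (*SPL1*, *SPL7*, *SPL8*, *SPL12*, *SPL14* and *SPL16*) held a site with 4 or fewer mismatches, and their best matches had between 6 and 8.

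The mutant label was checked on *VIP3* itself. Its mRNA stood at 40.8, 41.7 and 40.1 CPM in WT (CPM express a gene's estimated counts relative to the TMM-normalized library size) and at 5.96, 7.41 and 7.30 CPM in *vip3-1*, a log2 fold change of -2.57 (SE 0.099, edgeR adjusted p = 0.000192). Libraries held between 50040047 and 69033269 estimated counts. All 10 apex and young flower markers were detected, with summed levels of 816 to 1099 CPM in WT and 1166 to 1273 CPM in *vip3-1*. At an edgeR adjusted p under 0.05, 5 of them were called higher and 1 lower in *vip3-1*. Over all tested genes 14.6% were called higher and 16.1% lower. Between these markers the mean in *vip3-1* ranged from 72.5% to 502% of the WT mean. WT replicate 3 stood apart: 24 markers of anthers, carpels and ovules summed to 1642 CPM there, against 263 and 280 CPM in the other WT libraries and 257 to 304 CPM in *vip3-1*. The tapetum and pollen wall genes carried this sum, such as *A6* at 259 CPM against 8.12 and 16.0 CPM in the other WT libraries. The early anther genes *DYT1* (4 counts against 172 and 88) and *TDF1* (67 against 349 and 131) were instead lowest of WT there. In *vip3-1* replicates 1, 2 and 3, *DYT1* had 119, 23 and 4 counts and *TDF1* 130, 52 and 33, so both were lowest in replicate 3 there too. The ovule genes *STK*, *BEL1* and *INO* were highest in *vip3-1* replicate 1, with 239, 222 and 72 counts against at most 12, 23 and 2 in the other *vip3-1* libraries. WT replicate 3 had 168, 134 and 1 counts of these genes. At most 1 of the 24 markers was at 0 in any library. The summed level of 8 leaf photosynthesis genes was 2839 to 4339 CPM in WT, highest in replicate 3, and 1745 to 2877 CPM in *vip3-1*. Of the 8, 3 were called lower, beside the same 16.1% of all tested genes. The part of older flowers and of leaf tissue in the *SPL* values was not tested. Without WT replicate 3, the log2 fold changes of the 10 members lay between -0.90 and -0.16. In bulk apices, fewer cells that express a gene and less RNA per cell cannot be told apart.

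In *vip3-1* apices the mRNA of every one of the 10 *SPL* genes had a mean below that of WT, from 47.9% of the WT mean for *SPL5* to 95.6% for *SPL9*. *SPL3*, *SPL5*, *SPL10*, *SPL11* and *SPL15* fell at an adjusted p under 0.05 in edgeR's quasi-likelihood test, adjusted over the 20690 genes tested, and none rose. A fall was called for 16.1% of all tested genes and a rise for 14.6%. The 3 *vip3-1* libraries lay below all 3 WT libraries for 8 of the 10 genes, the exceptions being *SPL9* and *SPL13A*, and the same was true of 27.3% of all tested genes. The fold change was below 0 for 10 of 10 members and for 51.7% of all tested genes, and the median log2 fold change was -0.28 over the members and -0.018 over all tested genes. Since the 10 genes share regulators and sequence, they are not independent of one another. Among all calls 47.7% were rises, and this share was 32.2% when library sizes were used without TMM, where 8 of the 10 members were called lower.

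Only *SPL3*, *SPL5* and *SPL10* were called lower in all 18 other fits that were run. For *SPL3* none of these fits separates its reads from those of a gene on the opposite strand, described below. With 1 library left out the count of members called was 3 for each library other than WT replicate 3, and it was 6 without WT replicate 3, when *SPL2* was added. The share of all tested genes called in either direction was 30.7% and lay between 12.7% and 38.5% across these 6 fits. When the replicate number entered as a block, 6 members were called, *SPL2* and *SPL4* being gained and *SPL11* lost, beside falls called for 17.4% of all tested genes.

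**Figure D1:**
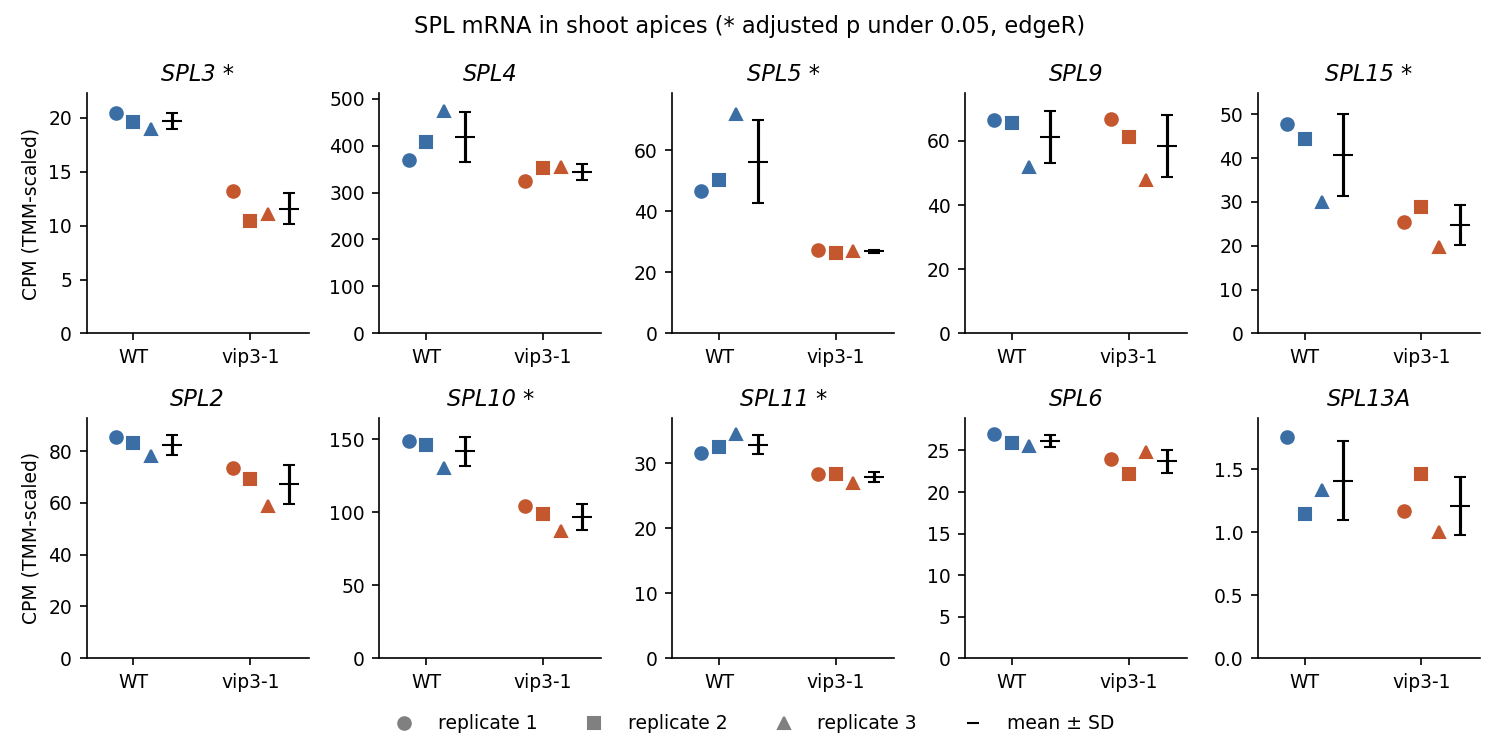
Levels of the 10 *SPL* mRNAs in CPM (linear axes from 0) in the 3 WT and 3 *vip3-1* libraries, with a symbol for each replicate and the mean ± SD beside it; a star marks an adjusted p under 0.05. The *vip3-1* points lie below all WT points except for *SPL9* and *SPL13A*, and WT replicate 3 is the highest WT library for *SPL4*, *SPL5* and *SPL11* and the lowest for *SPL2*, *SPL3*, *SPL6*, *SPL9*, *SPL10* and *SPL15*.

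*SPL3*, *SPL4* and *SPL5* form the clade that encodes small proteins with little beyond the SBP domain, and they are known to activate *LFY*, *AP1* and *FUL* together with the FT-FD complex. *SPL5* (chromosome 3, 5140365 to 5142323, minus strand) had the largest fall of the 10. Its mRNA was at 46.7, 50.2 and 71.9 CPM in WT and at 27.4, 26.5 and 27.0 CPM in *vip3-1*. The WT libraries were spread over a wide range with replicate 3 on top, whereas the *vip3-1* libraries were close to each other and below all of them. This was a log2 fold change of -1.06 (SE 0.17, edgeR adjusted p = 0.00677), or of -0.85 when WT replicate 3 was left out (adjusted p = 0.000629). *SPL5* lies within AT3G15260 on the opposite strand, which shares 25.5% of its exonic bases and had a log2 fold change of -0.18 (edgeR adjusted p = 0.166), or -0.26 without WT replicate 3, where it was called (adjusted p = 0.0309).

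*SPL3* (chromosome 2, 14305001 to 14306072, plus strand) stood at 20.5, 19.6 and 19.0 CPM in WT and at 13.2, 10.5 and 11.1 CPM in *vip3-1*. Here the WT libraries were tight and *vip3-1* replicate 1 was the highest of the mutant libraries, still well under WT. *SPL3* fell by 0.77 on the log2 scale (SE 0.10, edgeR adjusted p = 0.00478). The *SPL3* value has a limit in the annotation, since a non-coding gene on the opposite strand, AT2G33815 (14305008 to 14306053), covers 97.6% of *SPL3*. The strand setting of the counting was not given in the sources used here, so that reads of *SPL3* and of its antisense partner cannot be told apart. The counts of both genes were not whole in any library, such as 1446.37 and 14483.6 in WT replicate 1. The *SPL3* value is thus an estimated part of the reads at this locus.

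The antisense gene held the larger number in every library. It had 14484, 10728 and 9782 estimated counts in WT and 6510, 5873 and 5894 in *vip3-1*, and *SPL3* made up between 8.30% and 9.49% of the counts of both. The antisense gene had a log2 fold change of -0.70 (SE 0.073, edgeR adjusted p = 0.00229), and so had the sum of both genes (SE 0.076, adjusted p = 0.00247). The antisense gene makes up most of the sum, so this fall is that of the locus as a whole. Whether *SPL3* mRNA fell apart from its antisense partner cannot be told from these counts and was not tested.

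*SPL4* (chromosome 1, 19806263 to 19807705, plus strand) was the most abundant of the 10. Its mRNA was at 369, 408 and 475 CPM in WT and at 325, 352 and 355 CPM in *vip3-1*, and the groups did not overlap although WT replicate 1 came close to the mutant libraries. The log2 fold change of -0.28 (SE 0.11) did not pass the test (edgeR adjusted p = 0.0994). It passed with the replicate block (-0.27, adjusted p = 0.0483), with DESeq2 (adjusted p = 0.0483) and without TMM (adjusted p = 0.0486), and was -0.18 without WT replicate 3 (adjusted p = 0.112).

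*SPL9* and *SPL15* are close paralogs that control the pace of leaf initiation and the change to adult leaves, and *SPL15* is known to act with *SOC1* at the meristem during flowering. The values of the pair differed. *SPL9* (chromosome 2, 17587169 to 17589671, plus strand) was at 66.5, 65.5 and 51.7 CPM in WT and at 66.7, 61.1 and 47.9 CPM in *vip3-1*. The groups overlapped almost completely, and replicate 3 was the lowest library in both genotypes. Its log2 fold change was -0.065 (SE 0.15, edgeR adjusted p = 0.761), and it was 0.050 without *vip3-1* replicate 3.

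*SPL15* (chromosome 3, 21444243 to 21446035, minus strand) was at 47.8, 44.3 and 30.0 CPM in WT and at 25.5, 28.9 and 19.7 CPM in *vip3-1*. WT replicate 3 lay just above the highest *vip3-1* library, and replicate 3 was again the lowest of each genotype. The log2 fold change was -0.72 (SE 0.21, edgeR adjusted p = 0.0423). The call was lost when any library other than WT replicate 3 was left out (adjusted p between 0.0700 and 0.107), whereas leaving out WT replicate 3 gave -0.90 (adjusted p = 0.00701). The call was also lost in the limma fits on FPKM (limma adjusted p between 0.0662 and 0.112). Without the filter on low counts it was lost too (edgeR adjusted p = 0.0532). All of the exonic sequence of *SPL15* lies within AT3G57910 on the opposite strand, a gene at 11.5 to 12.3 CPM in WT and 12.5 to 13.2 CPM in *vip3-1* (log2 fold change 0.11, edgeR adjusted p = 0.297).

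*SPL2*, *SPL10* and *SPL11* form the clade known for the shape of leaves and the traits of cauline leaves and flowers in the reproductive phase. *SPL10* (chromosome 1, 9505112 to 9508542, minus strand) was at 149, 146 and 130.5 CPM in WT and at 105, 98.9 and 86.9 CPM in *vip3-1*. The lowest WT library stood well above the highest *vip3-1* library. On the log2 scale *SPL10* fell by 0.55 (SE 0.093, edgeR adjusted p = 0.00836), and by 0.61 when WT replicate 3 was left out (adjusted p = 0.00402).

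*SPL11* (chromosome 1, 9500892 to 9504023, plus strand), the neighbour of *SPL10* on the opposite strand, was at 31.5, 32.6 and 34.5 CPM in WT and at 28.4, 28.4 and 27.0 CPM in *vip3-1*. The groups were narrow and did not overlap. A small fall, by 0.23 on the log2 scale, passed the test (SE 0.063, edgeR adjusted p = 0.0343). The call was lost with the replicate block (adjusted p = 0.0515) and when any library other than WT replicate 3 was left out (adjusted p between 0.0563 and 0.0928). The limma fits on FPKM lost it as well (limma adjusted p between 0.123 and 0.125).

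*SPL2* (chromosome 5, 17360287 to 17363880, minus strand) was at 85.6, 83.1 and 78.0 CPM in WT and at 73.5, 69.3 and 58.8 CPM in *vip3-1*. The groups did not overlap, and replicate 3 was the lowest of each. The log2 fold change of -0.29 (SE 0.095) did not pass the test (edgeR adjusted p = 0.0589). It passed with the replicate block (-0.30, adjusted p = 0.0247), with DESeq2 (adjusted p = 0.0325), without TMM (adjusted p = 0.0185) and without WT replicate 3 (-0.33, adjusted p = 0.0403).

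The remaining members are *SPL6*, known from innate immunity, and *SPL13A*, which acts in the juvenile-to-adult change of leaves. *SPL6* (chromosome 1, 26005068 to 26007368, plus strand) was at 27.0, 25.9 and 25.5 CPM in WT and at 24.0, 22.2 and 24.9 CPM in *vip3-1*. These groups were separated by less than 1 CPM. The log2 fold change was -0.14 (SE 0.068, edgeR adjusted p = 0.149), and it passed the test only without TMM (adjusted p = 0.0483).

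*SPL13A* (chromosome 5, 20582083 to 20584721, minus strand) had the fewest reads of the 10, with 65.0 to 124 estimated counts in WT and 51.0 to 74.0 in *vip3-1*, and the groups overlapped. Its log2 fold change was -0.23 (SE 0.27, edgeR adjusted p = 0.547), smaller than its standard error. Its near-identical copy *SPL13B* was listed at 0 in all 6 libraries. Of the 50-base windows of *SPL13A* mRNA 78.3% also occur in *SPL13B*, and all windows of *SPL13B* occur in *SPL13A*, so how reads were shared between the copies cannot be told from the counts.

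**Figure D2:**
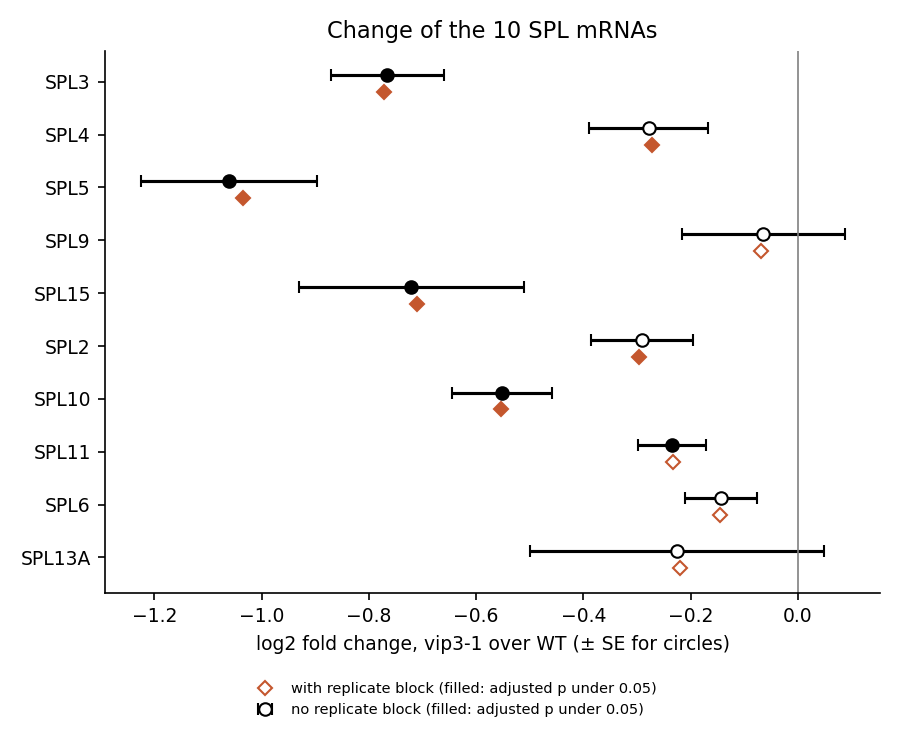
Log2 fold change of *vip3-1* over WT for each *SPL* gene, with circles and bars (± SE) for the fit on genotype alone and diamonds for the fit with the replicate number as a block; filled symbols have an adjusted p under 0.05. All points lie left of 0, with *SPL5* at -1.06 and *SPL9* at -0.065, and the block changes the call of *SPL2*, *SPL4* and *SPL11* with little shift of the estimates.

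Levels of different genes were compared in FPKM, the authors' unit, which is scaled by transcript length and by mapped fragments. *SPL4* was first in every library at 662 ± 74.6 FPKM in WT (SD, n = 3) and 553 ± 26.2 FPKM in *vip3-1*. It alone made up 64.2% ± 2.54 of the summed FPKM of the 10 genes in WT and 68.0% ± 2.38 in *vip3-1*. The next in WT were *SPL10* at 90.3 ± 6.15 and *SPL5* at 77.2 ± 20.5 FPKM, whose libraries overlapped. *SPL2* followed at 59.0 ± 5.53 FPKM, overlapping *SPL5* and above *SPL9* at 41.7 ± 6.38 FPKM in every library. From *SPL9* through *SPL15* (33.8 ± 8.08 FPKM) and *SPL11* (24.7 ± 1.79 FPKM) to *SPL3* (24.0 ± 0.453 FPKM), each gene overlapped the next. *SPL6* was lower at 16.5 ± 2.07 FPKM, and *SPL13A* was lowest at 1.00 ± 0.304 FPKM. The place of *SPL3* and the shares of the sum depend on how reads were assigned between *SPL3* and its antisense gene AT2G33815. That gene was listed at 240 to 269 FPKM in WT and 151 to 171 FPKM in *vip3-1*.

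In *vip3-1* the order changed at 3 places. *SPL5*, at 37.1 ± 1.33 FPKM, was below *SPL2* (48.7 ± 7.55 FPKM) in every library and overlapped *SPL9* (39.9 ± 5.43 FPKM), and its share of the summed FPKM was 7.42% ± 1.41 in WT and 4.56% ± 0.138 in *vip3-1*. *SPL15* (20.6 ± 3.86 FPKM) came after *SPL11* (21.0 ± 0.885 FPKM), with overlapping libraries. *SPL3* (14.4 ± 1.41 FPKM) came after *SPL6* (15.2 ± 1.91 FPKM), and the ranges of this pair overlapped although *SPL6* was the higher within each library. This place of *SPL3* has the limit given above for reads assigned between it and AT2G33815.

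**Figure D3:**
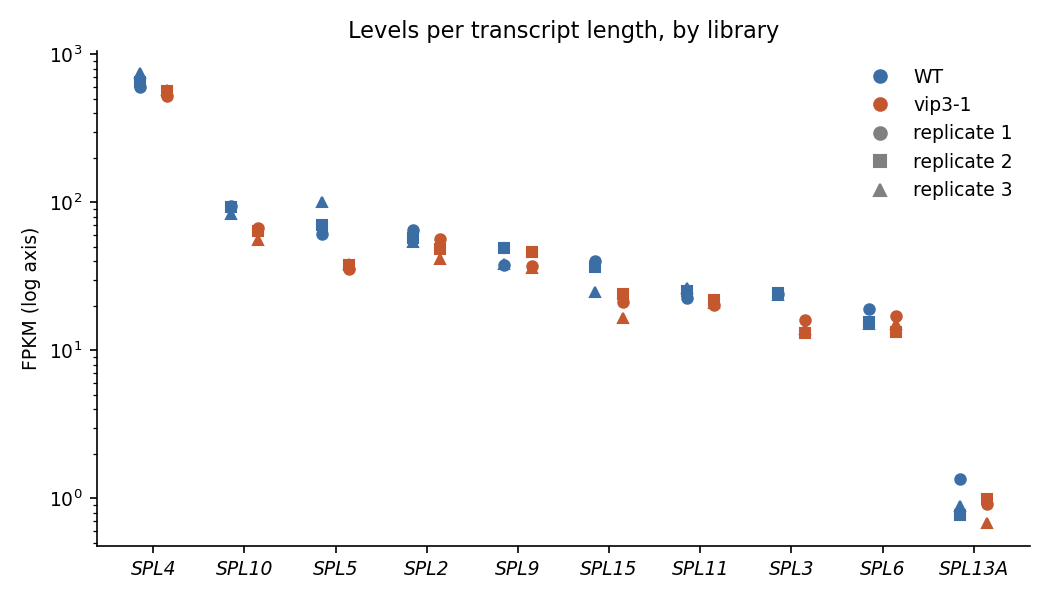
FPKM of the 10 *SPL* genes on a log axis, 1 symbol per library, WT in blue and *vip3-1* in orange, genes ordered by their WT mean. *SPL4* (662 FPKM in WT) lies far above the others and *SPL13A* (1.00 FPKM in WT) far below.

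Summed over clades, the mean FPKM was lower in *vip3-1* in each. The sum of *SPL3*, *SPL4* and *SPL5* was 683, 739.7 and 868 FPKM in WT and 574, 616 and 622 FPKM in *vip3-1* (mean log2 difference -0.33, and -0.24 to -0.41 with a library left out), and by the listed values it is mostly *SPL4*. The *SPL3* part of this sum has the limit given above. The sum of *SPL2*, *SPL10* and *SPL11* was 182, 176 and 164 FPKM in WT and 144, 135 and 118 FPKM in *vip3-1* (-0.40, and -0.32 to -0.46). The sum of *SPL9* and *SPL15* was 77.6, 85.7 and 63.2 FPKM in WT and 58.7, 70.2 and 52.6 FPKM in *vip3-1* (-0.32, and -0.22 to -0.44), and only here did the groups overlap. These sums are descriptions, and neither they nor the differences between clades were tested.

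Paralogs were then compared with each other. The ratio of 2 genes within a library needs no scaling between libraries, and such ratios were computed for the 7 pairs within clades. *SPL4* was 7.90, 8.12 and 6.60 times *SPL5* by counts in WT and 11.8, 13.3 and 13.2 times in *vip3-1*. *SPL9* was 1.39, 1.48 and 1.72 times *SPL15* in WT and 2.62, 2.12 and 2.43 times in *vip3-1*. *SPL2* was 0.575, 0.568 and 0.598 times *SPL10* in WT and 0.703, 0.700 and 0.677 times in *vip3-1*. *SPL10* was 4.72, 4.49 and 3.78 times *SPL11* in WT and 3.68, 3.48 and 3.22 times in *vip3-1*.

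In each of these 4 pairs the genotypes did not overlap, and the mean log2 ratio moved by 0.76, 0.64, 0.26 and -0.32. With 3 libraries against 3 the smallest p that a two-sided exact permutation test can give is 0.1. These 4 pairs reached it (exact p = 0.1, adjusted p = 0.175 over the 7 pairs), so none could pass the threshold. The ratios of *SPL3* to *SPL4* (exact permutation p = 0.2), *SPL3* to *SPL5* (p = 0.4) and *SPL2* to *SPL11* (p = 0.6) overlapped between genotypes. The ratios were added after the changes of the single genes had been seen.

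**Figure D4:**
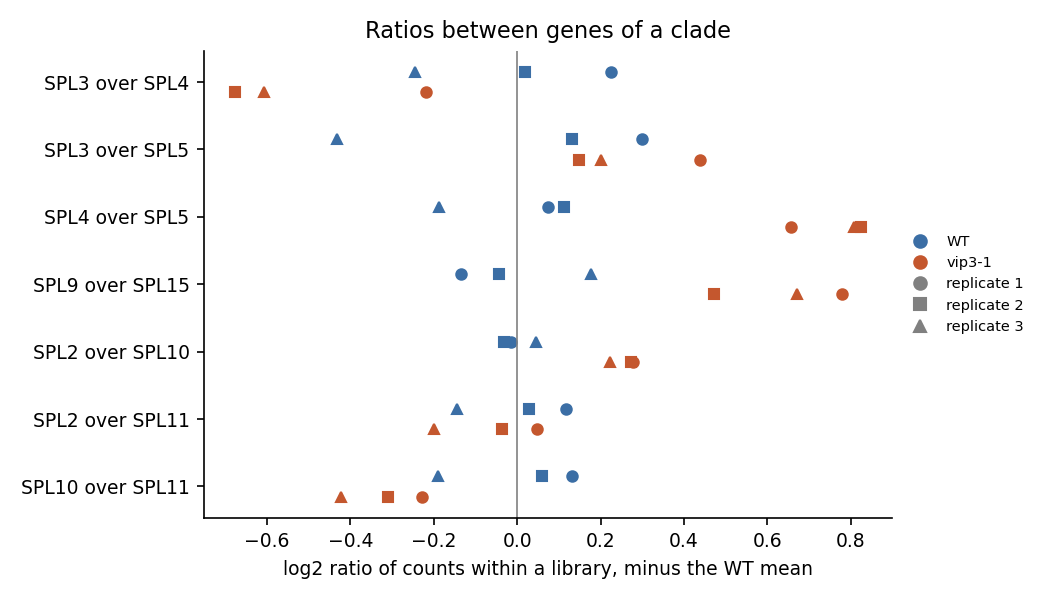
Log2 ratio of the counts of paralogs within each library, relative to the WT mean of that pair, for 3 WT (blue) and 3 *vip3-1* (orange) libraries. The *vip3-1* points of *SPL4* over *SPL5* and *SPL9* over *SPL15* lie to the right of all WT points, by 0.76 and 0.64 on average, whereas those of *SPL2* over *SPL11* are mixed with WT.

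The study discusses transcriptional noise in Paf1c mutants, and the spread between replicates was compared here. The SD of log2 CPM was larger in *vip3-1* for 5 of the 10 members, beside 31.9% of all tested genes. *SPL5* had the widest contrast, with an SD of 0.33 in WT and 0.025 in *vip3-1*, but the WT value was 0.073 without WT replicate 3, while *SPL3* went the other way with 0.055 and 0.18. The count was 7 without WT replicate 3, beside 67.7% of all tested genes, and 2 without *vip3-1* replicate 3, beside 24.0% of all tested genes. With 3 pools of many apices per genotype, these SDs describe pools and not single apices or cells.

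The other *SPL* genes, which lack a miR156 site, showed 1 call in 6, a fall, beside 16.1% called lower over all tested genes. *SPL12*, known from heat tolerance of the inflorescence, was at 92.2, 88.3 and 96.3 CPM in WT and at 71.5, 75.7 and 82.8 CPM in *vip3-1* (log2 fold change -0.27, SE 0.076, edgeR adjusted p = 0.0391). This call was lost when WT replicate 1 or 2 or *vip3-1* replicate 1 or 2 was left out (adjusted p between 0.0688 and 0.134). It was also lost in the limma fits on FPKM (limma adjusted p between 0.0776 and 0.0827). The median log2 fold change over these 6 was 0.0019, with 3 below 0. Without WT replicate 3, 2 were called, *SPL16* being added as lower, beside 38.5% of all tested genes called in either direction. No test of a difference between the *SPL* genes with and without a site was run.

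The miRNA genes themselves were hardly seen in these libraries. Of 12 *MIR156* and *MIR157* loci none had more than 2 counts in any library, and none could be tested. *MIR156C* had 2 counts in *vip3-1* replicate 2 and 0 elsewhere. Of 5 *MIR172* loci only *MIR172A* exceeded 3 counts, with 26, 15 and 10 counts in WT and 13, 15 and 4 in *vip3-1* (log2 fold change -0.40, SE 0.55, edgeR adjusted p = 0.596; 0.442 to 0.977 with a library left out). Counts at a miRNA locus reflect the primary transcript, and the mature miRNAs were not measured here.

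Of the AP2-type repressors that miR172 targets, 2 of 5 tested were called lower and none higher, beside 16.1% called lower over all tested genes. Without WT replicate 3 the count was 3, *TOE3* being added (log2 fold change -0.66, edgeR adjusted p = 0.0254). *SMZ* had few reads, with 20, 16 and 8 counts in WT and 19, 27 and 49 in *vip3-1*, and its log2 fold change of 1.36 did not pass the test (adjusted p = 0.0703) although its CPM did not overlap. *TOE1* fell from 9.26 ± 1.48 to 4.77 ± 0.924 CPM (SD, n = 3 each; log2 fold change -0.96, SE 0.19, edgeR adjusted p = 0.0143), with no overlap between genotypes. Its call was lost with limma on log2(FPKM + 0.1) (limma adjusted p = 0.0527) and on log2(FPKM + 1) without a filter (0.0855). *TOE2* fell by 0.29 on the log2 scale (SE 0.086, adjusted p = 0.0470), a call that was lost with the replicate block (adjusted p = 0.0614) and with any library other than WT replicate 3 left out (adjusted p up to 0.141).

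The flowering genes examined act with or downstream of SPL proteins, apart from *TFL1*, which opposes flower formation. Where they were called, their mRNAs moved the opposite way to the *SPL* mRNAs. Of 7 tested, 4 were called higher and none lower, with all libraries and also without WT replicate 3, beside 14.6% called higher and 16.1% lower over all tested genes. *SOC1*, a MADS-box activator of flowering, was at 112, 128 and 109 CPM in WT and at 214, 276 and 233 CPM in *vip3-1* (log2 fold change 1.05, SE 0.12, edgeR adjusted p = 0.00265). *TFL1*, which keeps the inflorescence meristem from turning into a flower, was at 14.5, 18.1 and 18.0 CPM in WT and at 33.8, 62.8 and 47.6 CPM in *vip3-1* (log2 fold change 1.51, SE 0.23, adjusted p = 0.00627). For both genes every *vip3-1* library lay above every WT library.

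The floral meristem identity genes *LFY* and *AP1* rose less, with log2 fold changes of 0.47 (SE 0.10, edgeR adjusted p = 0.0182) and 0.39 (SE 0.073, adjusted p = 0.0114). The call of *LFY* was lost without WT replicate 1 (adjusted p = 0.0548), without *vip3-1* replicate 2 (0.0718) and without *vip3-1* replicate 3 (0.0574), and that of *AP1* without *vip3-1* replicate 1 (0.0522). That of *LFY* was also lost in the limma fits on FPKM (limma adjusted p between 0.181 and 0.256). *FUL*, a MADS-box gene that SPL proteins activate, had a log2 fold change of -0.081 (SE 0.076, adjusted p = 0.433). *FD*, which encodes the bZIP partner of FT, was at 129 ± 22.2 and 138 ± 18.0 CPM (log2 fold change 0.099, adjusted p = 0.627). *FT* and *TSF*, which are expressed in leaves, had at most 5 counts in any library.

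Among the trichome repressors that SPL9 is known to activate, 1 of 2 was called. *TCL1* rose from 8.65 ± 1.24 to 20.8 ± 3.55 CPM (SD, n = 3 each; log2 fold change 1.27, SE 0.16, edgeR adjusted p = 0.00385) with *SPL9* at 95.6% of its WT mean, and *TRY* had a log2 fold change of -0.59 (adjusted p = 0.0922). Of 7 genes of miRNA processing and action, 2 were called higher and none lower, a share close to the 30.7% of all tested genes called in either direction. With DESeq2 and without WT replicate 3 the count was 3, *HST* being added as lower. *SE*, whose zinc-finger protein assists DCL1, rose from 128 ± 10.6 to 180.2 ± 4.77 CPM (log2 fold change 0.50, SE 0.079, adjusted p = 0.00728). *SQN*, a cyclophilin that promotes AGO1 activity, had a log2 fold change of 0.24 (SE 0.067, adjusted p = 0.0369), a call lost with any library other than WT replicate 3 left out. None of 4 chromatin regulators of *MIR156* genes (*BRM*, *PKL*, *VAL1* and *VAL2*) was called by edgeR, whereas 2 had an unadjusted p under 0.05 and DESeq2 called 1.

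**Figure D5:**
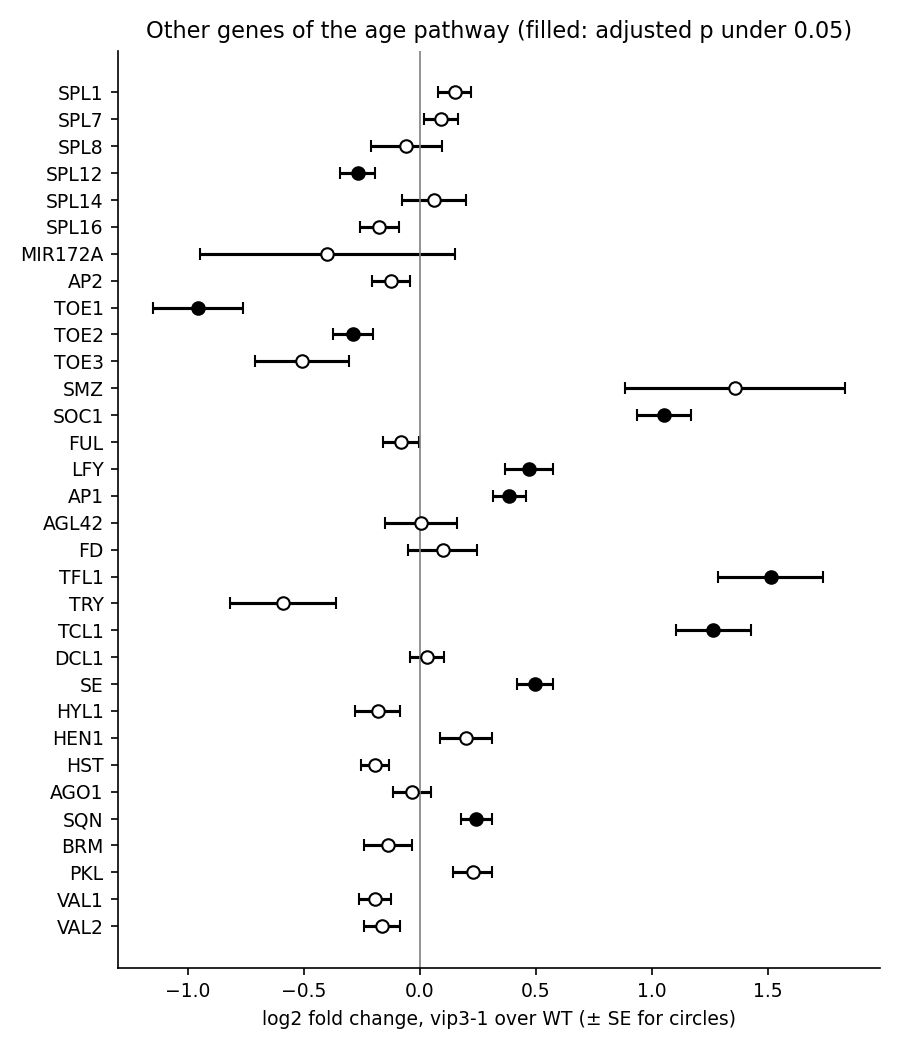
Log2 fold change (± SE) of *vip3-1* over WT for the tested genes that act around the *SPL* genes, filled at an adjusted p under 0.05. *TFL1* (1.51), *TCL1* (1.27) and *SOC1* (1.05) lie farthest to the right among the filled points, and *TOE1* (-0.96) farthest to the left.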

How the data were processed

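The data are RNA-seq libraries of dissected apices, 3 from WT and 3 from *vip3-1*, grouped by their labels. The authors prepared total RNA libraries, trimmed adapters with Trimmomatic, mapped reads to TAIR10 with TopHat 2.0.6 and Bowtie 2.0.5, used SAMtools 1.2, and estimated expression with Cufflinks 2.1.1. The strand setting and the treatment of reads that match several places were not given in the sources used here. The deposited estimated counts are not scaled for library size, and 1.47% of the values (1059 genes) are not whole, so they were rounded. The deposited FPKM values are scaled by the authors for transcript length and mapped reads. The result of the authors' own comparison by Cuffdiff, with mean FPKM, fold changes, p- and q-values, was also deposited and was left unused.

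The quasi-likelihood F-test of edgeR 4.0.16 (R 4.3.3) was run with a model of genotype alone, after TMM scaling and the filterByExpr filter. P-values of the 20690 genes left were adjusted by the method of Benjamini and Hochberg, and genes under 0.05 were called. Libraries held between 50040047 and 69033269 counts, and a locus with 3 or fewer counts was taken as not detectable, which covers counting error only. No library was a copy of another (chi-square per degree of freedom 22.9 to 140 between replicates). Deviations of same-numbered libraries from their genotype means correlated at 0.217, 0.190 and 0.367, all above 0.1, although WT replicate 1 correlated at 0.289 with *vip3-1* replicate 2. The numbers may thus pair the libraries, but no source says so, and the fit with the number as a block is given where it changes a call.

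All 10 members passed the filter. The members, the lists of other genes and the tests were chosen with earlier results of these data known. Named genes are the members, *SPL13B*, *VIP3*, *SOC1*, *FUL*, *LFY*, *AP1*, *FD*, the *MIR156* and *MIR172* loci with the highest mean, and up to 4 called genes of each list with the largest change. Named after their values were seen were *TRY*, *FT*, *TSF*, *TOE3*, *SMZ*, *HST*, *SPL16*, the chromatin regulators of *MIR156* genes, 6 of the marker genes and the genes that overlap members. Alternatives were DESeq2 1.42.0, its size factors in edgeR, unscaled library sizes, no filter, a minimum of 10 counts per library, the replicate block, limma 3.58.1 on log2(FPKM + 1) (with and without the filter) and on log2(FPKM + 0.1), a threshold of 0.01, a minimum change of 1 on the log2 scale, leaving out each library, and *SPL13A* and *SPL13B* summed. Chosen after seeing the data were *SPL3* summed with its antisense gene, ratios within clades, leaving out WT replicate 3 with *vip3-1* replicate 1, and the lists without WT replicate 3. A permutation test of summed FPKM was planned and is not reported, since the sums rest on the chosen members. SDs of log2 CPM used a prior count of 2. miR156 sites were searched in spliced RefSeq transcripts without gaps. Tables were made in python 3.11.15 with pandas 2.3.3 and plots with matplotlib 3.10.9. Permutation tests enumerated every assignment of the 6 libraries.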

Additional observations from a re-analysis of the deposited data

How the results depend on the processing

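The limits are 3 pools per genotype, 1 allele, WT replicate 3 with its high level of older flower markers, and overlapping genes without a known strand setting. Over the single-gene fits of the 10 *SPL* genes, 133 of 162 kept direction and side of the threshold, 9 gained a call, 19 lost one and 1 turned direction: *SPL9* was 0.050 without *vip3-1* replicate 3, the upper end of its range of -0.18 to 0.050 with a library left out, and -0.28 without WT replicate 3 and *vip3-1* replicate 1 together. Of 14 other named genes *FD*, never called, turned to -0.0027 without WT replicate 3 and to -0.019 without *vip3-1* replicate 2, and was at most 0.24, without WT replicate 2. The count of members called, 5, became 8 without TMM, where the median was -0.38, 3 with limma on log2(FPKM + 1), on log2(FPKM + 0.1) and on log2(FPKM + 1) without a filter, 3 at an adjusted p under 0.01 and 1 where a change of at least 1 on the log2 scale was also required. Under these settings the count of all genes called, 6354, was 7056, 3901, 4011, 3297, 2163 and 1814, in that order. With each library left out in turn, members called ranged from 3 to 6, all genes called from 2673 to 8055, the median of the members from -0.36 to -0.27 and the count of members with the larger SD in *vip3-1* from 2 to 7. With the replicate block 7388 genes and 6 members were called, and the calls of *SPL2*, *SPL4*, *SPL11*, *TOE2* and *TOE3* (adjusted p = 0.0275) changed, but no other call of a named *SPL*, pathway or overlapping gene. DESeq2 called 8084 genes and 7 members. Without WT replicate 3 and *vip3-1* replicate 1 together, 5 members were called. The cause of these differences was not tested.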
